A study of Mus musculus with 6 samples.

Results

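Complement is a cascade of plasma and tissue proteins, and the 9 genes described here encode its starting molecule, its central and alternative-pathway components and the receptors through which myeloid cells read its products. They were chosen by name, with earlier results of these data known: C1qa, C1qb and C1qc, C3, Cfb, C3ar1, C5ar1, Itgam and Itgb2. On the array, 8 of the 9 were read by a probe set that its annotation assigns to that gene alone, among 18193 genes so measured, and C3 was not analysed here. The tissue was the subventricular zone (SVZ), the stem cell niche along the lateral ventricle, from adult male C57BL/6 mice. The 3 MCAO arrays held SVZ from the injured side, taken 48 h after surgical block of the middle cerebral artery, the vessel supplying striatum and lateral cortex. The 3 sham arrays held SVZ taken 48 h after a sham operation. The labels name no transgene and no drug, give no age beyond adult, and do not say whether a sample was 1 mouse or a pool. Separate mice are not stated either, so each p-value reflects the spread between these 6 samples alone, and that spread may be technical.

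C1q, assembled from A, B and C chains, binds targets such as antibody complexes and cell debris and starts the classical pathway. Every pathway converges on the cleavage of C3, to which factor B contributes in the alternative pathway, and the fragments C3a and C5a signal through the receptors encoded by C3ar1 and C5ar1. Itgam and Itgb2 encode the chains of complement receptor 3, with which phagocytes bind C3 fragments on particles. In the brain, microglia are the main source of C1q and carry complement receptor 3, and both have been tied to the removal of synapses.

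Values are log2 expression levels, so a difference of 1 is a doubling, and differences are within a gene. The median gene serves only as a rough mark of dim probe sets, since levels of different probe sets are not on 1 scale. Differences are MCAO minus sham with limma's standard error (SE), and adjusted p is limma's after Benjamini-Hochberg adjustment over all 18193 genes, with a threshold of 0.05. Samples carry the numbers 1 to 3 in each group, which the labels do not explain. Arrays that shared a number deviated together, though whether they pair beyond the arrays numbered 1 was not tested. Differences within same-numbered arrays and fits with the number as a block are therefore given where they change a call. This pairing was read from the same values that were then tested with it. Arrays with the number 1 were separated from the rest along the leading principal component of all genes, which held 40.8% of the variance. The 9 measured genes of the SVZ lineage list, among them the neuroblast gene Dcx, were each brighter than the median gene of sham tissue. So were all 8 measured striatal neuron markers, all 9 astrocyte markers and 9 of 10 ependymal markers. These levels therefore do not separate the niche from the tissue beside it.

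The 3 C1q genes rose in MCAO tissue, each by more than the spread between arrays, as did Itgb2. C3ar1 rose once the sample number was taken into account, and so did Itgam by a smaller amount. C5ar1 and Cfb did not pass in either fit. Without the block, 4 of the 8 genes rose and 0 fell, where 1.12% of all genes rose and 0.0165% fell; 5 of the 8 rose at an unadjusted p under the same threshold, where 6.32% of all genes did. With the block 6 of the 8 rose, where 4.83% of all genes did. In 5 of the 8 the 3 MCAO values lay above all 3 sham values, as in 8.4% of all genes, and 6 of the 8 were higher in all 3 same-numbered pairs, as in 20% of all genes. The median difference was 1.09 log2 over the 8 genes and −0.0064 over all genes. Since the genes were chosen with earlier results of these data known, the shares beside all genes are descriptions with no test. In bulk tissue, more cells of a type and more RNA per cell cannot be told apart.

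**Figure D1:**
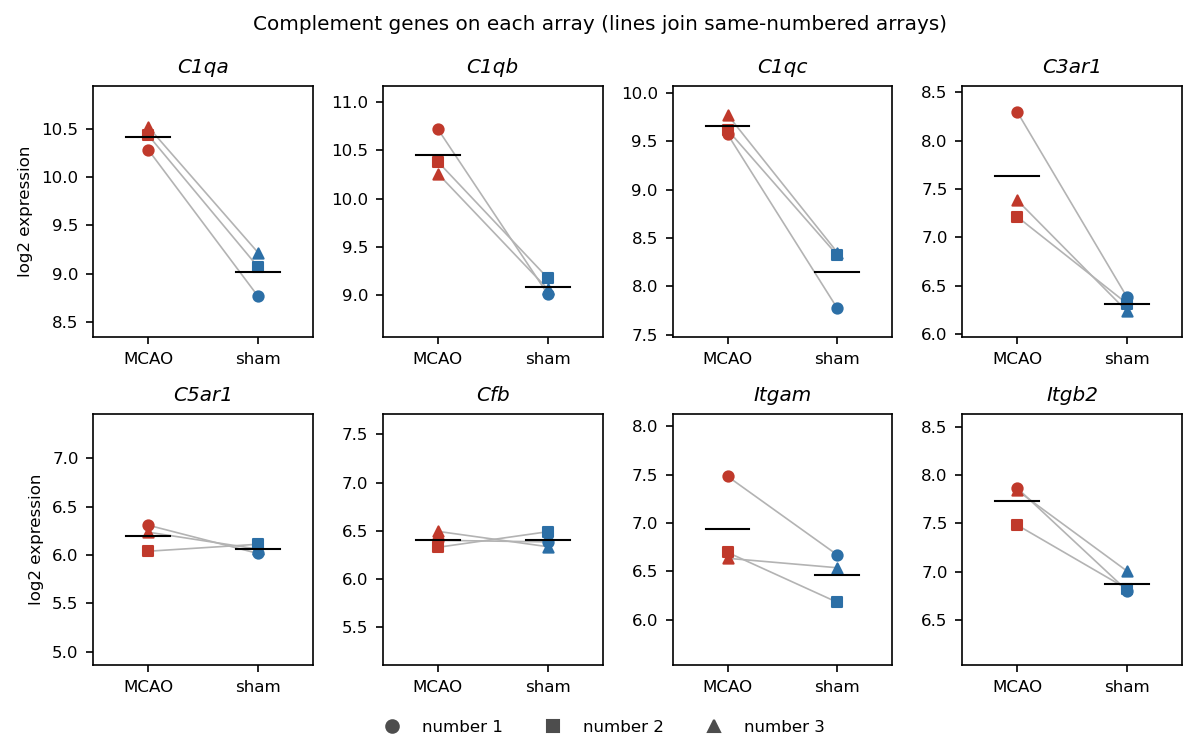
Log2 expression of the 8 measured complement genes on each array, with MCAO left and sham right in each panel, a horizontal bar at each group mean, and lines joining arrays of the same number. Every panel spans the same log2 range. The MCAO points lie above all sham points for C1qa, C1qb, C1qc, C3ar1 and Itgb2, and overlap them for C5ar1, Cfb and Itgam.

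C1qa, the gene of the A chain, read 10.28, 10.44 and 10.52 on MCAO arrays 1, 2 and 3, against 8.77, 9.07 and 9.22 on sham arrays 1, 2 and 3. The lowest MCAO value lay 1.07 above the highest sham value, and sham 1 was the lowest array of all. The difference was 1.40 ± 0.13 log2 (SE, n = 3 per group), or 2.63-fold, with limma's adjusted p = 0.00402. C1qb, the gene of the B chain, read 10.72, 10.38 and 10.26 in MCAO, against 9.01, 9.18 and 9.07 in sham. Here MCAO 1 was the highest array, while the sham arrays lay close together. The difference was 1.37 ± 0.12 log2 (SE, n = 3 per group), or 2.58-fold (limma's adjusted p = 0.00402). C1qc, the gene of the C chain, read 9.57, 9.62 and 9.78 in MCAO, against 7.77, 8.32 and 8.35 in sham. Its MCAO arrays were close together and sham 1 lay below the other sham arrays. The difference was 1.51 ± 0.16 log2 (SE, n = 3 per group), or 2.85-fold (limma's adjusted p = 0.00659).

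Within same-numbered arrays the C1q genes differed by 1.30 to 1.52 (C1qa), 1.19 to 1.71 (C1qb) and 1.30 to 1.80 (C1qc), with the arrays numbered 1 giving the largest difference for each of the 3. Averaged over the 3 genes and set against the sham mean, the MCAO arrays read 1.44, 1.40 and 1.44 log2, against −0.23, 0.11 and 0.13 on the sham arrays. The 3 genes thus differed little between MCAO arrays once averaged, although C1qa and C1qb ordered those arrays oppositely. All 3 passed whichever single array was left out, with adjusted p up to 0.0292 for C1qa, 0.0373 for C1qb and 0.0400 for C1qc.

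C1qb was read by 3 probe sets, 2 of them of a kind (_x_at) that may bind related transcripts, and the brightest, used above, is one of these. The probe set of the standard kind read 10.34, 10.46 and 10.37 in MCAO, against 8.66, 9.06 and 9.09 in sham, and its difference was 1.45 ± 0.12 log2 (SE). On it sham 1 was the lowest array and the MCAO arrays lay close together, as for C1qa. The third read 9.32, 9.52 and 9.45 in MCAO, against 8.39, 8.53 and 8.33 in sham, and its difference was 1.02 ± 0.085 log2 (SE). All 3 passed when every probe set was tested separately (limma's adjusted p = 0.00504 for the brightest and 0.00432 for each of the others), so the size of the C1qb difference, and which MCAO array read highest, varied with the probe set while the call did not.

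The 3 C1q genes lie next to each other on mouse chromosome 4 in the order C1qb, C1qc, C1qa, with 0 other protein-coding genes between them in RefSeq's gene table for GRCm38.p6. The promoters of 2 of them are shown because these neighbours rose together, with that of Itgam, a myeloid gene with a smaller difference. The 3 shown are also the only ones searched that held the letters marked below, so they are no comparison for those letters. Each runs from 250 bases before to 50 bases after the gene's start, on the gene's strand. They come from RefSeq's table for GRCm38.p6, which held 6 of the 9 genes (C1qb, C1qc, C3, C3ar1, C5ar1 and Itgam). Capitals mark the letters GAGGAA, the core bound by the myeloid factor PU.1, or their reverse complement TTCCTC.
C1qb, chr4:136886151-136886450, minus strand: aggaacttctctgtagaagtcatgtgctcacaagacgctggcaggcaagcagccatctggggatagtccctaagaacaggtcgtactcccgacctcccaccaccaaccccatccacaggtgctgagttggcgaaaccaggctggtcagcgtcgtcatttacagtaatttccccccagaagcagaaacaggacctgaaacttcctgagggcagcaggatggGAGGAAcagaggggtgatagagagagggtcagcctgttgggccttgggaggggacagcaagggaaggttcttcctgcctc
C1qc, chr4:136892865-136893164, minus strand: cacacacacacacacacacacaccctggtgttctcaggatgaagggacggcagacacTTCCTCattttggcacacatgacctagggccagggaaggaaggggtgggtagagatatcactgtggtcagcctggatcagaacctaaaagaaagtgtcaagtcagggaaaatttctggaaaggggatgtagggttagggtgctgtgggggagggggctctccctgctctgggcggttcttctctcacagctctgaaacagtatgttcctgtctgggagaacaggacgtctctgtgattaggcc
Itgam, chr7:128062390-128062689, plus strand: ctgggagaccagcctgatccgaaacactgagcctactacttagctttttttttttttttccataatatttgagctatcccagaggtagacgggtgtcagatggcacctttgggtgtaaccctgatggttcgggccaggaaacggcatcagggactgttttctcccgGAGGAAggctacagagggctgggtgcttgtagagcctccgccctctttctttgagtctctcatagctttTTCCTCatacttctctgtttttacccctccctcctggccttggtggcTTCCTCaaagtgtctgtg

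These letters occur once in the C1qb promoter, from base −30 relative to the start, once in that of C1qc, on the opposite strand from base −193, and 3 times in that of Itgam, from bases −84, −15 and 33. In the promoters of C3, C3ar1 and C5ar1 they do not occur in this window. Of the 32851 promoters in the table, 28.3% hold them on either strand, so their presence in 3 of 6 is a description only. None of the 6 held TTCCNGGAA, a STAT motif present in 1.15% of all promoters, searched on both strands. The consensus motifs of NF-κB and of IRF factors, present in 0.155% and 3.44% of all promoters, were not in these windows either.

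Cfb, the gene of factor B, was the other component measured, and it did not pass. It read 6.40, 6.33 and 6.49 in MCAO, against 6.39, 6.49 and 6.34 in sham, and the groups overlapped. The difference was 0.0045 log2 with a 95% interval from −0.18 to 0.19 (limma's adjusted p = 0.996), and its sign turned under several settings. On both sides its values lay below the median gene of the sham arrays, 7.13.

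Of the receptors, C3ar1 had the largest difference. It encodes the C3a receptor, carried by microglia and other myeloid cells. It read 8.30, 7.21 and 7.38 in MCAO, against 6.38, 6.31 and 6.23 in sham. The groups did not overlap, the sham arrays lay close together, and MCAO 1 stood well above the other MCAO arrays. The difference was 1.32 ± 0.25 log2 (SE, n = 3 per group), or 2.50-fold, with limma's adjusted p = 0.0683, and 5.20e-04 once the block was added. Within same-numbered arrays it was 1.92, 0.90 and 1.15. Without the block, it passed in 1 of the 6 fits that left out an array: without MCAO 1 the difference was 0.99 (limma's adjusted p = 0.00457). In the other 5 it was 1.28 to 1.53, with limma's adjusted p from 0.0576 (without MCAO 2) to 0.2998 (without sham 3). Passing again, without both arrays numbered 1 it was 1.02 (limma's adjusted p = 0.00226). Its other 2 probe sets read 1.14 ± 0.17 and 0.94 ± 0.16 log2 higher in MCAO (SE, n = 3 per group). With every probe set tested separately, limma's adjusted p was 0.101 for the brightest and 0.0367 and 0.0628 for these 2.

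C5ar1, the gene of the C5a receptor found on phagocytes, read 6.31, 6.04 and 6.24 in MCAO, against 6.02, 6.11 and 6.06 in sham. MCAO 2 lay among the sham values and the groups overlapped. The difference was 0.13 ± 0.089 log2 (SE, n = 3 per group), with a 95% interval from −0.076 to 0.34 (limma's adjusted p = 0.846, and 0.446 with the block). A doubling of this probe set's signal lies outside the interval. All 6 values lay below the median gene of the sham arrays, and so dim a probe set limits what can be seen of a change in RNA. The dimmer C5ar1 probe set read 6.02, 5.98 and 6.38 in MCAO, against 5.96, 5.57 and 5.81 in sham, without overlap. Its difference was 0.35 log2 and did not pass (limma's adjusted p = 0.627).

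**Figure D2:**
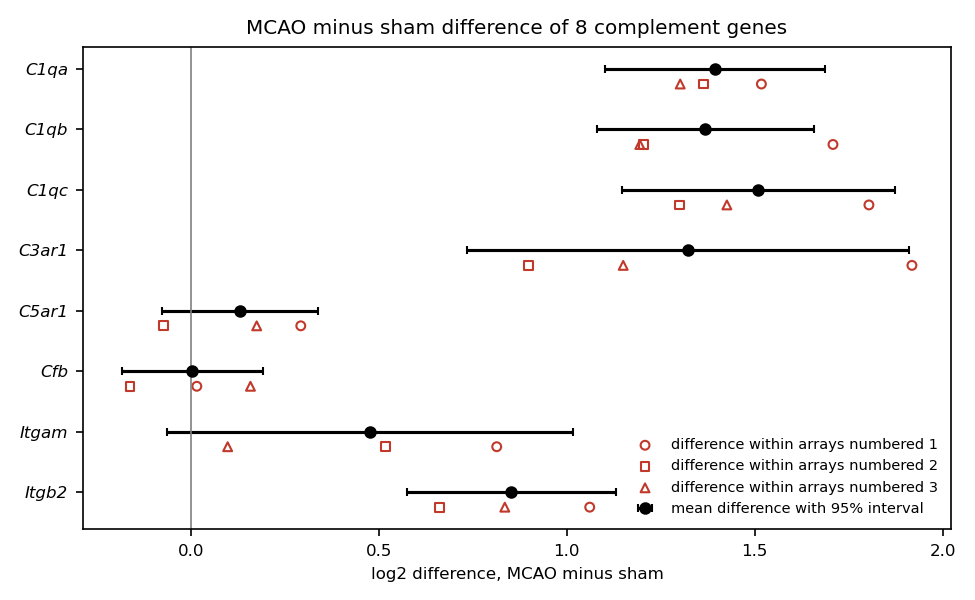
MCAO minus sham log2 difference of the 8 genes: black points with bars are the mean difference and its 95% interval from the fit without the block, and open red symbols are the differences within same-numbered arrays. The intervals of C5ar1, Cfb and Itgam include 0; the arrays numbered 1 give the largest pair difference for every gene but Cfb.

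Of the chains of complement receptor 3, that of Itgb2 passed without the block and that of Itgam with it alone. Itgb2, the β2 chain that Itgam shares with other leukocyte integrins, read 7.86, 7.48 and 7.84 in MCAO, against 6.80, 6.82 and 7.0 in sham. All MCAO values lay above all sham values, with MCAO 2 the lowest of them. The difference was 0.85 ± 0.12 log2 (SE, n = 3 per group), or 1.81-fold (limma's adjusted p = 0.0185). The call was lost without MCAO 3 (adjusted p = 0.0977), sham 1 (0.0597), sham 2 (0.0803) or sham 3 (0.0767), while the difference stayed between 0.78 and 0.98 whichever array was left out.

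Itgam, the αM chain also known as CD11b, read 7.48, 6.70 and 6.64 in MCAO, against 6.67, 6.18 and 6.54 in sham. MCAO 1 was clearly the highest, and MCAO 3 lay just below sham 1, so the groups overlapped. The difference was 0.48 ± 0.23 log2 (SE, n = 3 per group), with a 95% interval from −0.064 to 1.02 and limma's adjusted p = 0.668. Without MCAO 1 it was 0.20 (limma's adjusted p = 0.785). Each MCAO array was above the sham array of its number, by 0.81, 0.52 and 0.098, and a fit with that number as block passed the gene (limma's adjusted p = 0.0347). That call was lost without the arrays numbered 1, where the difference was 0.31 (limma's adjusted p = 0.188), and when every probe set was tested separately with the block (0.0777).

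**Figure D3:**
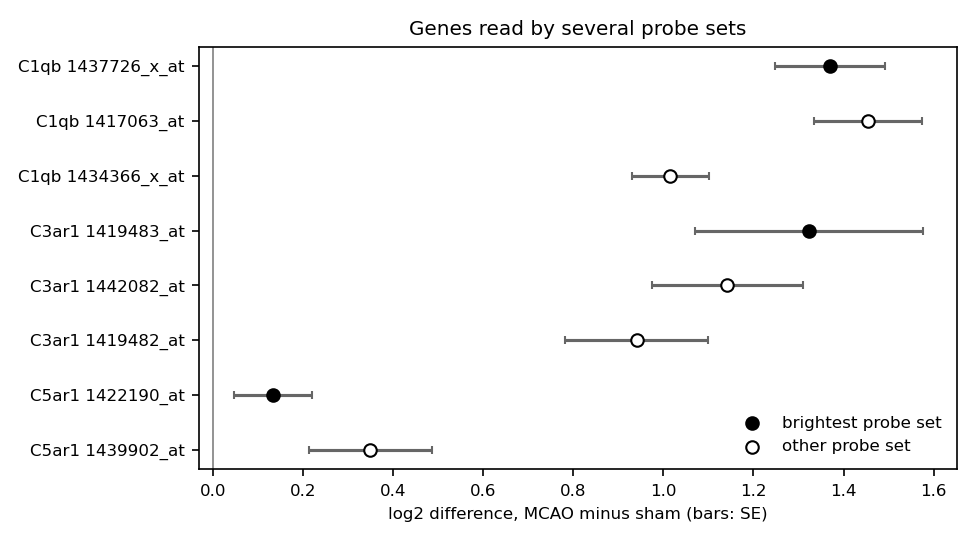
MCAO minus sham log2 difference of each probe set of the 3 genes that had more than 1, with bars for the SE; filled points are the brightest probe set of a gene, used in the text, and open points the others. All 8 probe sets were higher in MCAO, with those of C1qb and C3ar1 between 0.94 and 1.45 and those of C5ar1 at 0.13 and 0.35.

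Among 49 other complement genes listed by role, 39 were measured. Without the block 1 of them rose, or 2.56%, where 1.12% of all genes did, and 0 fell by limma (6 rose and 0 fell at an unadjusted p under 0.05). With the block 4 rose, or 10.3%, where 4.83% of all genes did, and 1 fell, where 1.31% of all genes did. Their median difference was 0.048 log2. The gene that rose in both fits was Serping1, which encodes C1 inhibitor, the protease inhibitor that dissociates active C1. It read 7.88, 8.42 and 8.03 in MCAO, against 6.64, 6.97 and 6.94 in sham, with no overlap. The difference was 1.26 ± 0.15 log2 (SE, n = 3 per group; limma's adjusted p = 0.0117), and the call was lost without MCAO 3 (0.0529) or sham 3 (0.0737).

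Of the proteases that act after C1q, C1ra, C1s1 and C2 were measured, and 0 passed by limma in either fit (1 at an unadjusted p under 0.05 in each). All 3 lay below the median gene in sham tissue, which limits what can be seen of a change. In 2 of them, C1ra and C1s1, all MCAO values lay above all sham values, as in 8.4% of all genes. C1ra, which encodes the C1r protease, came nearest, at 0.21 ± 0.071 log2 (SE, n = 3 per group; limma's adjusted p = 0.376). The C4 genes share a probe set and were not analysed here. None of 9 lectin pathway genes passed, 0 of them at an unadjusted p under 0.05 in either limma fit, and their median was −0.010; the smallest p belonged to the collectin gene Colec11, at −0.096. Of 6 terminal pathway genes, which build the membrane attack complex, 0 passed and 0 had an unadjusted p under 0.05 in either limma fit, with C8g first by p at 0.094. Properdin, the stabiliser of the alternative pathway encoded by Cfp, read 0.091 lower in MCAO (limma's adjusted p = 0.935). All 9 lectin and all 6 terminal pathway genes lay below the median gene in sham tissue.

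With the block, 4 further genes of these lists passed. Cd93, a receptor of endothelial and myeloid cells once described as a C1q receptor, differed by 0.47 log2 (limma's adjusted p = 0.153, and 0.00528 with the block). Icam1 and Icam2, whose products are ligands of β2 integrins, differed by 0.31 (limma's adjusted p = 0.470, and 0.0258 with the block) and 0.27 (0.169, and 0.0375 with the block). Csmd1, a membrane protein of neurons that restrains complement, was the 1 gene that fell with the block, at −0.29 (limma's adjusted p = 0.651, and 0.0333 with the block). Without sham 1 it read −0.15. Without the arrays numbered 1, the block kept Cd93 (0.0357) past the threshold, and not Icam1 (0.253), Icam2 (0.276) or Csmd1 (0.329). These 3 did not pass in the block without the arrays numbered 3 either (limma's adjusted p = 0.0598, 0.102 and 0.0922). On the values as deposited the block did not pass Icam1 (0.0773), Icam2 (0.0726) or Csmd1 (0.142) either. With the mean of their probe sets in place of the brightest, Cd93 read 0.19 and Csmd1 −0.079, without the block.

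**Figure D4:**
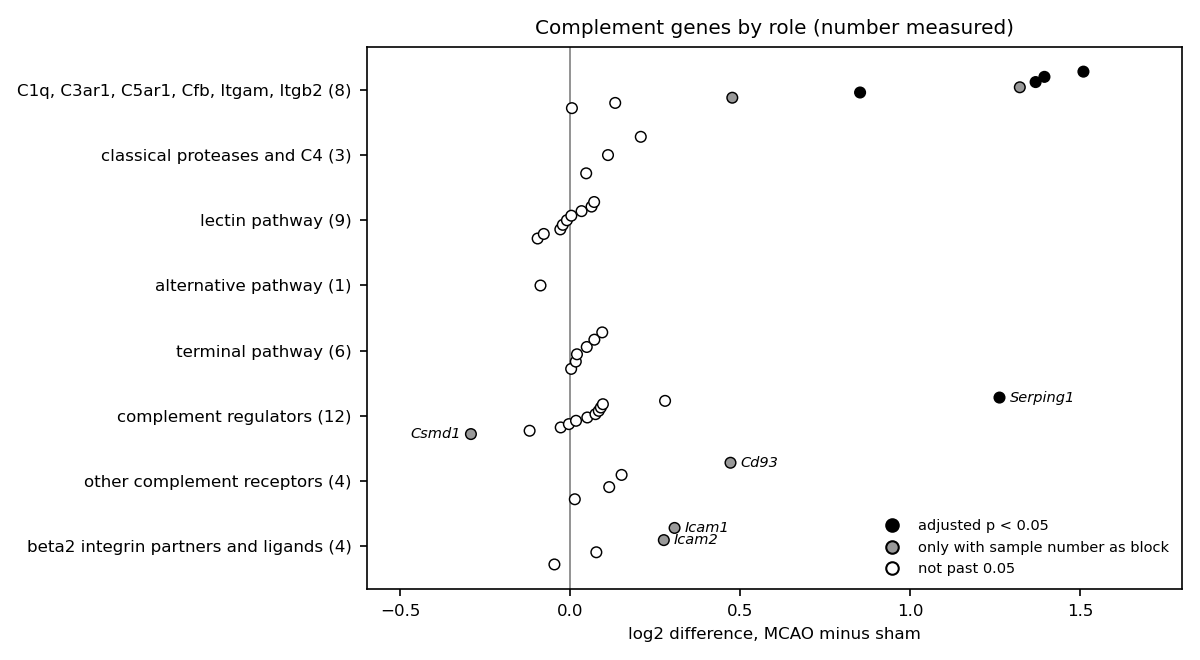
MCAO minus sham log2 difference of 47 complement genes, grouped by role with the number measured in brackets; each point is a gene, black where the adjusted p passed 0.05, grey where it passed with the sample number as a block and not without it, and white otherwise. Apart from the top row, Serping1 is the gene with a black point.

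Markers of myeloid cells moved in the same samples, where 1.12% of all genes rose without the block and 4.83% with it. Of 11 homeostatic microglia markers 3 rose (8 with the block), 7 of 11 activated phagocyte markers rose (8 with the block), and 6 of 11 monocyte or macrophage markers rose (7 with the block). Their summed levels, in log2, ran from 12.51 to 13.11 in MCAO and 12.04 to 12.11 in sham for microglia. They ran from 13.36 to 13.54 in MCAO and 12.997 to 13.148 in sham for activated phagocytes, and from 11.13 to 11.33 in MCAO and 10.14 to 10.33 in sham for monocytes or macrophages. Bright probe sets weigh most in such sums. In that of activated phagocytes the brightest was Apoe, which averaged 12.36 in MCAO and 12.48 in sham. The median difference over the genes of each list was 0.46 for microglia, 1.02 for activated phagocytes and 0.62 for monocytes or macrophages. First by p were Fcrls (1.58) and Olfml3 (1.23) of microglia, Fcgr1 (1.35) and Cd14 (0.95) of phagocytes, and Mrc1 (0.96) and Ms4a6c (0.70) of monocytes or macrophages. Members of the monocyte or macrophage list differed widely, from −0.13 (Cd163) to 1.96 (Lyz1), both named after their values were seen. The part of these markers in the complement differences was not tested.

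The C1q genes can be set beside these lists on each array. Relative to the sham mean, the homeostatic microglia list averaged 0.83, 0.42 and 0.59 log2 on MCAO arrays 1, 2 and 3, and the activated phagocyte list 1.06, 0.71 and 0.95. The C1q average, at 1.40 to 1.44, was above the mean of both lists on each MCAO array. Members of a list differed widely, from 0.15 (P2ry12) to 1.58 (Fcrls) for microglia and from −0.12 (Apoe) to 2.29 (Lgals3) for phagocytes, so some single markers differed by as much as C1q or more. P2ry12, Apoe and Lgals3 are named after their values were seen. Less the microglia list it read 0.62, 0.98 and 0.84 in MCAO, against −0.23, 0.12 and 0.11 in sham. Less the phagocyte list it read 0.38, 0.69 and 0.49 in MCAO, against −0.14, 0.026 and 0.12 in sham. The groups overlap in neither case; the lists were chosen with earlier results known, so these are descriptions with no test.

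**Figure D5:**
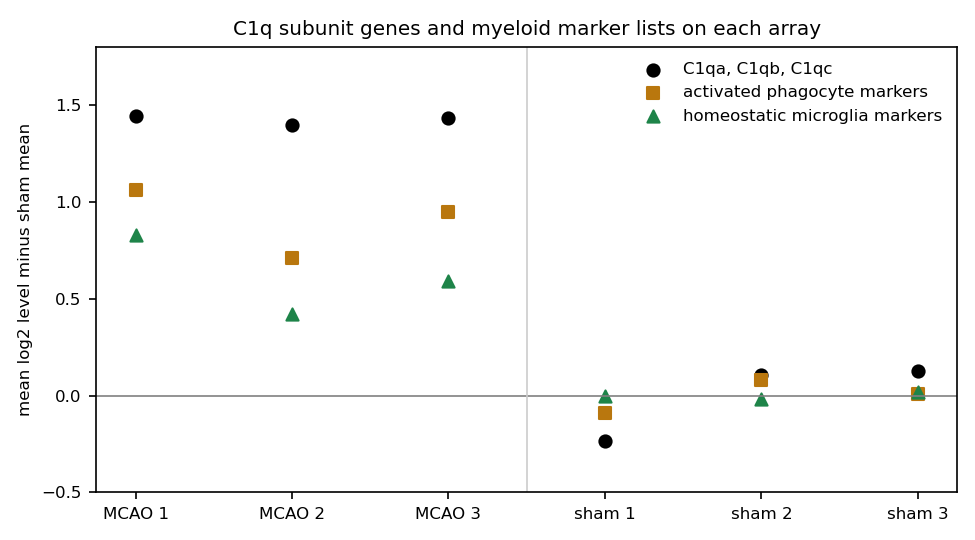
Mean log2 level of the 3 C1q genes and of 2 myeloid marker lists (11 genes each) on every array, set to 0 at the sham mean of each. On each MCAO array the C1q mean (1.40 to 1.44) is highest, the activated phagocyte list (0.71 to 1.06) is next and the homeostatic microglia list (0.42 to 0.83) is lowest.

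Markers of blood cells and astrocytes were counted too. Past the adjusted threshold, 1.12% of all genes rose and 0.0165% fell without the block. With the block 4.83% rose and 1.31% fell. At an unadjusted p under 0.05, 6.32% of all genes rose and 2.46% fell without the block, and 10.9% rose and 8.18% fell with it, so counts at that level are read against these shares. None of 10 neutrophil markers passed by limma in either fit (2 at an unadjusted p under 0.05, and 5 with the block), all 10 lay below the median gene in sham, and their summed level ran from 9.66 to 9.80 in MCAO and 9.51 to 9.68 in sham. First by p were S100a8 and Elane, at 0.24 and 0.20. Of 8 lymphocyte markers 0 passed (0 at an unadjusted p under 0.05, and 1 with the block), with Cd79b and Cd3g first at 0.22 and 0.14 and sums from 9.73 to 10.03 in MCAO and 9.66 to 10.05 in sham. Of 3 red blood cell markers 0 passed and 0 had an unadjusted p under 0.05 in either limma fit, with Alas2 at −0.086 and Slc4a1 at 0.051. Of 9 astrocyte markers 2 rose, Aldh1l1 (0.89) and Aqp4 (0.97), and 4 did with the block. Differences in this list ran from −0.28 (Slc1a2) to 2.69 (Gfap), both named after their values were seen. Gfap passed with the block alone (limma's adjusted p = 0.141, and 5.17e-07 with the block). The summed level of the 9 ran from 14.39 to 14.59 in MCAO and 14.16 to 14.37 in sham.

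Neighbouring tissue was checked in the same way. Of 9 SVZ lineage markers 0 passed by limma (1 at an unadjusted p under 0.05), with Cd24a (0.66) and Nes (0.35) first. With the block 1 passed (3 rose at an unadjusted p under 0.05). Of 10 ependymal markers 0 passed in either limma fit (0 at an unadjusted p under 0.05, and 7 with the block), led by Rsph1 and Foxj1 at 0.25 each. Of 8 choroid plexus markers 0 passed in either limma fit (0 at an unadjusted p under 0.05, and 1 higher and 2 lower with the block), with Ttr at −0.28 and Slc4a5 at 0.13. All 8 striatal neuron markers were lower in MCAO, as were 9519 of all 18193 genes. By limma 0 passed without the block (3 fell at an unadjusted p under 0.05). With the block 1 fell (6 at an unadjusted p under 0.05). First by p were Drd1 at −0.34 and Tac1 at −0.20.

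For each of the 4 genes that rose without the block, the genes nearest to it over the 6 arrays were found. The measure was the root mean square (RMS) difference between log2 profiles after each gene's own mean was subtracted. As the 4 genes were picked for their difference between groups, this measure favours genes with a difference of similar size. Among 16331 genes, the nearest to C1qa were Lcp1, a leukocyte actin-bundling protein gene, at an RMS difference of 0.067 log2, C1qc at 0.097 and the Fc receptor gene Fcgr1 at 0.13. C1qc in turn had C1qa nearest (0.097), then the small heat shock protein gene Hspb6 (0.12) and the Fc receptor-like gene Fcrls (0.13). C1qb ran closest to the Fc receptor gene Fcgr3 (0.082) and the membrane protein genes Ms4a6d (0.095) and Ms4a6b (0.098), while C1qa came 31st for it. The nearest to Itgb2 were Ch25h, whose enzyme makes an oxysterol from cholesterol, at 0.058, the class I gene H2-K1 at 0.066 and Pros1, which encodes protein S, at 0.074. The probe sets of C1qb, Ms4a6d and H2-K1 used here are of kinds that may bind related transcripts. The standard probe set of C1qb, on which the MCAO arrays lay close together, was not compared in this way. All points of these profiles share the same 6 arrays.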

How the data were processed

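The authors deposited log2 expression values, 1 per probe set, for 45101 probe sets on 6 one-colour arrays. The sample labels give total RNA as the molecule and biotin as the label. How background was corrected and probes were summarised and normalized is not given in the sources used here. Of the probe sets 64 are controls, which were left out; the rest were quantile-normalised between arrays, because the 90th percentiles of the deposited values differed (8.85 to 9.06). Gene names came from the annotation table of the array, through the 34945 probe sets with 1 symbol, and the one with the highest mean over 6 arrays stood for its gene, which gave 18193 genes.

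The comparison of MCAO and sham used limma 3.58.1 (lmFit and eBayes, 2-sided) under R 4.3.3, tested on simulated data. A rank or permutation test of 3 against 3 cannot go below p = 0.1. Deviations from group means correlated across genes at 0.77, 0.44 and 0.48 between arrays numbered 1, 2 and 3. The number was taken to pair the samples and used as a block in a second fit. Because deviations cancel out within a group, these 3 values are not independent of each other. Whether samples pair beyond the arrays numbered 1 was not tested. Alternatives were other scalings, variance models, probe set rules, a filter on dim genes and leaving out arrays; 1 probe set rule, without and with the block, and the block without 1 number were added after seeing the data. The 9 genes and all lists were chosen with earlier results of these data known. Named were the 9 genes, list genes past the threshold in either fit or else first by p, the first 2 of each marker list, and the 3 nearest profiles. The number of arrays limits the precision.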

Additional observations from a re-analysis of the deposited data

How the results depend on the processing

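C1qa, C1qb and C1qc kept their direction and passed under all 19 alternatives, with differences between 1.27 and 1.50, 1.20 and 1.47, and 1.32 and 1.62. Itgb2 kept its direction under all 19 (0.75 to 0.98). C3ar1 also passed with an intensity trend (adjusted p = 0.0222) and when its probe sets were averaged (0.0416). The number of the 8 genes that rose was 3 to 5 when 1 array was left out, 5 without both arrays numbered 1, 5 or 6 with the replicate block less 1 number, and 5 with the block when every probe set was tested separately. Cfb, which never passed, turned to −0.0088 with deposited values shifted to a common median, to between −0.038 and 0.048 when 1 array was left out, to −0.0013 without both arrays numbered 1, also in the block, and to −0.073 in the block without number 3. Of the other complement genes, 1 rose with all arrays, 4 with the replicate block, 2 with it on the values as deposited, and 0 to 1 when 1 array was left out; the block without number 1, 2 or 3 gave 2, 6 and 2. The cause of these changes was not tested. Besides C3ar1 and Itgam, the block changed no call among the 8 genes. With dim genes left out, C3ar1, C5ar1, Cfb and Itgam were not tested. Dim probe sets such as those of Cfb, C5ar1, C1ra, C1s1, C2 and most lectin and terminal pathway genes limit what can be seen of their changes.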
